A study of Mus musculus with 18 samples.

Results

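The 39 genes described here encode the enzymes that activate fatty acids and break them down in mitochondria and peroxisomes, together with the thioesterases that release free fatty acids again. They were picked out of the 52093 symbols of the deposited tables by a list of gene symbols. The list was chosen with earlier results of these data known. Where a symbol had several rows, the row with the highest mean RPKM was used. The set holds 5 long-chain acyl-CoA synthetases, 9 acyl-CoA dehydrogenases, 7 genes for the remaining mitochondrial steps, 3 for the electron transfer flavoprotein (ETF) system, 7 peroxisomal enzymes and 8 acyl-CoA thioesterases. Their mRNA levels were compared between 6 libraries of adipocytes from inguinal white fat (iWAT), 6 of adipocytes from epididymal white fat (eWAT) and 6 of brown adipose tissue (BAT). All libraries came from wild type male C57BL/6 mice that were 16 weeks old and had spent 12 weeks on high-fat feeding (HFD), with no chow-fed group analysed here. The white depots were digested and the floating mature adipocytes collected, whereas BAT was taken as whole frozen tissue, so depot and preparation cannot be told apart in any comparison with BAT. The samples were sequenced to survey G protein-coupled receptors, and the genes below were measured in the same libraries.

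A fatty acid must be coupled to coenzyme A before it can be oxidized, and carnitine carries the long-chain product into mitochondria. There the acyl chain is shortened in repeated rounds of dehydrogenation, hydration, a further dehydrogenation and thiolysis, and the ETF system passes electrons from the acyl-CoA dehydrogenases to the respiratory chain. Peroxisomes shorten very long and branched chains by similar chemistry with their own enzymes. Brown fat burns fatty acids to produce heat, whereas white fat mainly stores them as triglyceride.

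Libraries held between 24655056 and 42518483 reads on transcript rows. Levels are given as RPKM, the reads of a row divided by its length and by the library total, and values are mean ± SD of 6 libraries (n = 6) unless stated. The tissues carried their defining markers: Ucp1, the uncoupling protein of brown fat, was at 1858 ± 237 RPKM in BAT, at most 2.98 in iWAT and at most 0.37 in eWAT. Other cell types were also present. All 6 macrophage genes examined were higher in eWAT than in iWAT adipocytes, with a summed level of 2564 to 4134 RPKM in eWAT, 452 to 891 in iWAT and 24.5 to 48.4 in BAT. None of the 6 was at 0 in any tissue. Conversely, all 5 adipocyte markers (Adipoq, Plin1, Cidec, Lipe and Fabp4) were higher in iWAT adipocytes, and their geometric mean ranged from 740 to 1097 RPKM in iWAT, 153 to 509 in eWAT and 345 to 434 in BAT. eWAT libraries 1 and 3 were lowest, with 202 and 153 RPKM. The 4 endothelial genes were also higher in iWAT than in eWAT, with sums of 99.5 to 280 and 33.4 to 71.2 RPKM. So were the 3 skeletal muscle genes and 1 lymphocyte gene tested there, and 1 of 4 fibroblast and progenitor genes (Dpt). The 2 mesothelial genes tested were higher in eWAT. Of all genes tested between these depots, 34.1% were higher in iWAT and 34.5% in eWAT. In these bulk samples, fewer cells of a type and less RNA per cell cannot be told apart. Transcripts of the mitochondrial genome took 18.1 to 24.6% of the RPKM total in BAT and 2.27 to 7.03% in the white adipocytes.

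Most of the 39 genes were expressed in all tissues, and many reached their highest level in BAT. At a mean of at least 1 RPKM, 32 were detected in iWAT, 34 in eWAT and 34 in BAT. At least 100 RPKM was reached by 2 genes in iWAT (Acsl1 and Etfb), by 0 in eWAT and by 12 in BAT. The median of the 39 mean levels was 11.4 RPKM in iWAT, 8.81 in eWAT and 25.1 in BAT. Acsl1, Etfb, Acadm, Acadl and Acaa2 were the 5 most abundant in both white depots, with Acsl1 first. In BAT the leading 5 were Acaa2, Acadl, Acadvl, Acadm and Etfb, and together they made up 62.1% of the summed level. RPKM divides by the length of the deposited row, and the rows of Echs1, Hadh, Hadhb and Etfdh were 3.21 to 5.32 times longer than the longest GENCODE transcript of the gene. Other rows were longer too, for example 2.72 times for Etfa, 2.77 times for Acsl1 and 2.81 times for Acox3. Levels of such genes are therefore lower than they would be per transcript length, which does not touch comparisons of a gene with itself. Shares and ratios between genes do depend on row length.

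**Figure D1:**
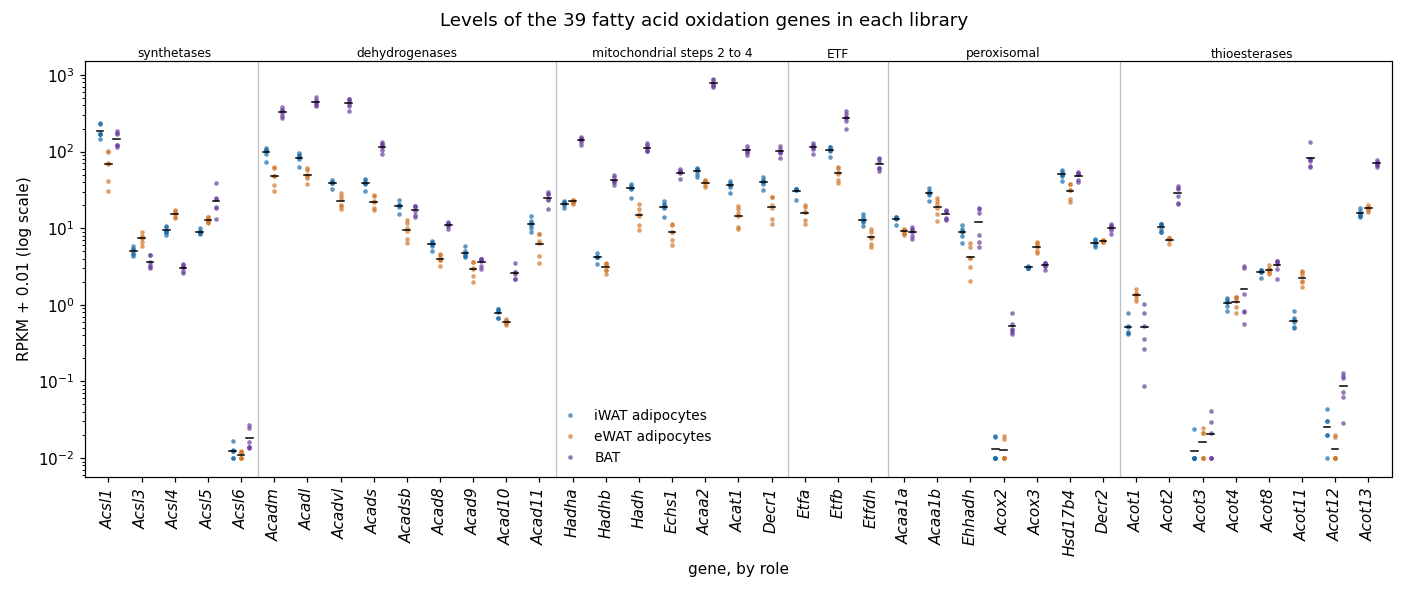
RPKM of each of the 39 genes (horizontal axis, grouped by role) in each library, on a log scale after adding 0.01. Each point is a library and each black line the mean of 6 libraries. The mitochondrial steps, ETF and the dehydrogenases other than Acadsb and Acad9 stand highest in BAT, whereas the synthetases and peroxisomal genes lie closer together, and Acsl6, Acot3 and Acot12 lie near 0 in all tissues.

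4 genes could not be compared in full because they had too few reads. Acsl6, a synthetase known from brain, had 0 to 3 reads per library in the white depots and 2 to 8 in BAT. Acot3 had 0 to 2 reads in any library, and Acot12, a thioesterase known from liver, had at most 14. Acox2, the peroxisomal oxidase of branched chains and bile acid precursors, had 0 or 1 read in every white library but 39 to 98 reads in BAT. Its BAT level of 0.515 ± 0.136 RPKM was at least 16.9-fold higher than in eWAT and at least 17.4-fold higher than in iWAT adipocytes on the RPKM scale, taking 3 reads per library as the floor. After TMM scaling these bounds were 25.7-fold and 26.0-fold. Such floors cover counting error only.

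Most of the tested genes were higher in BAT than in white adipocytes. Against iWAT adipocytes, 36 were tested and 29 were higher in BAT (80.6%), 2 were higher in iWAT (Acsl4 and Acaa1b) and 5 did not pass the threshold (edgeR quasi-likelihood test, adjusted p at most 0.05). Of all 19745 genes tested in this comparison, 75.3% passed, with 37.2% higher in BAT. The members' median log2 difference was 1.98 in favour of BAT, whereas that of all genes tested was 0.01 towards iWAT. In 25 members the difference reached 2-fold in favour of BAT (69.4%, against 19.1% of all genes), and in Acsl4 alone it reached 2-fold in favour of iWAT. In either direction, 37.3% of all genes reached 2-fold. The 6 and 6 RPKM values did not overlap in 27 members, 23 of them higher in BAT and 4 in iWAT, against 65.3% of all genes, with 13.5% higher in BAT and 51.8% in iWAT.

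Against eWAT adipocytes, 31 of 36 were higher in BAT (86.1%) and 4 were higher in eWAT, namely Acsl3, Acsl4, Acox3 and Acot1. Here 82.5% of the 20076 genes tested passed, with 41.4% higher in BAT. The members' median log2 difference was 2.58 in favour of BAT, and 28 members were at least 2-fold higher there (77.8%, against 25.3% of all genes and 49.0% in either direction). The RPKM values did not overlap in 29 members, 25 higher in BAT and 4 in eWAT, against 68.4% of all genes, with 19.2% higher in BAT and 49.2% in eWAT. Both comparisons use the same 6 BAT libraries and are therefore not independent. The count higher in eWAT was 2 without BAT library 1 and also without BAT library 18, since Acox3 and Acot1 lay close to the threshold.

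The size of these differences depends on how libraries are put on a common scale. RPKM divides by the total of a library, whereas the test scaled libraries by the trimmed mean of M-values (TMM), which assumes that most genes do not change. Without TMM the median of all genes moved by 0.85 log2 units towards iWAT and 0.91 towards eWAT, and 8 members were higher in iWAT against 23 higher in BAT, while 69.4% of all genes were higher in iWAT and 15.5% in BAT. On the total outside the mitochondrial genome, the split was 6 against 23. Relative to the median of all genes, the members' median lay 2.0 log2 units towards BAT, between iWAT and BAT, with and without TMM. A change of scaling moves all genes of a library by the same factor. This distance therefore could hardly change and does not test the scaling. Acsl1, Acsl3, Acadsb, Acad9, Acaa1a, Hsd17b4 and Acot1 changed direction between iWAT and BAT under both, and Acox3 under the total count alone. Between eWAT and BAT, Acaa1a and Acaa1b changed direction under both, and Acad9 and Acot8 under the total count alone. The other members tested against BAT kept their direction under both.

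**Figure D2:**
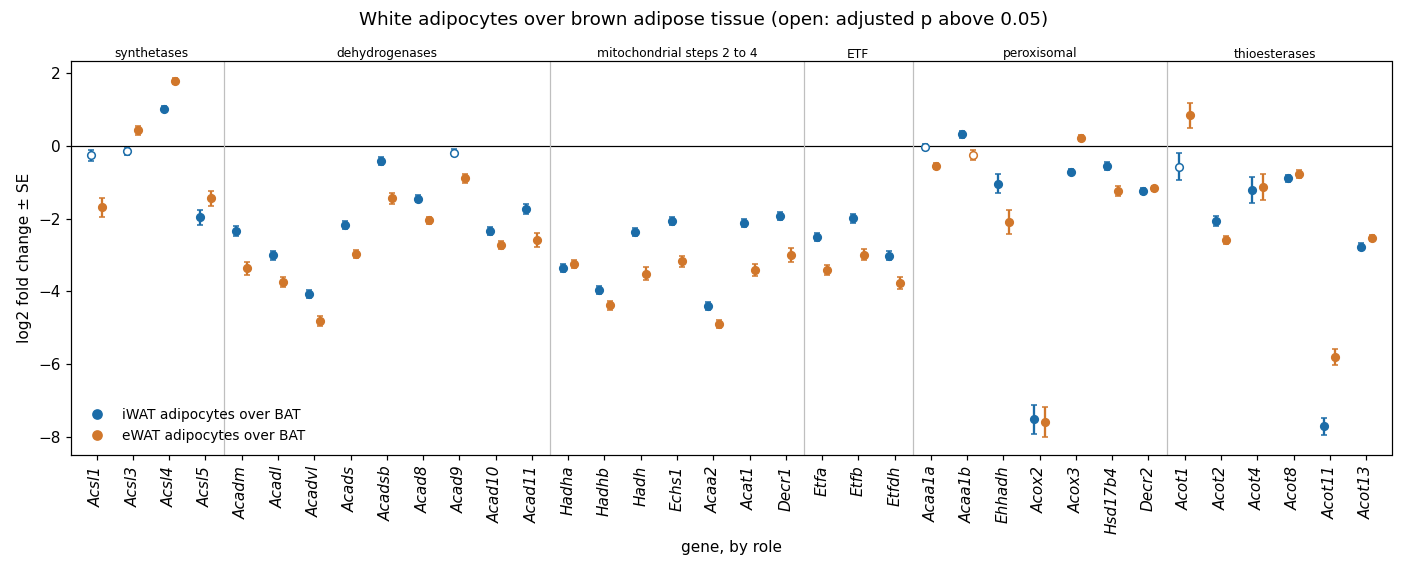
Log2 fold change of iWAT adipocytes over BAT (blue) and of eWAT adipocytes over BAT (orange) for the 36 genes tested, by role, with bars of 1 SE from 12 libraries each. Points below 0 are higher in BAT and open points missed the threshold. After TMM scaling, the dehydrogenases, mitochondrial steps and ETF lie below 0 throughout (Acadsb and Acad9 change sign against iWAT, and Acad9 against eWAT, on the total count), and Acsl4 lies above 0 in both. The fitted value of Acox2, which is near 0 reads in white adipocytes, depends on the prior count and is no estimate of its fold.

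Within a library, the balance between both organelles can be read without any scaling between libraries. The summed RPKM of the 19 mitochondrial genes (dehydrogenases, later steps and ETF) was 520 to 740 in iWAT, 270 to 446 in eWAT and 2727 to 3589 in BAT. The summed RPKM of the 7 peroxisomal genes spanned only 89.6 to 122, 57.1 to 88.1 and 77.3 to 113. The ratio of the mitochondrial to the peroxisomal sum was 5.96 ± 0.17 in iWAT, 4.80 ± 0.15 in eWAT and 32.4 ± 3.02 in BAT. The 3 ranges did not overlap. The peroxisomal sum includes Hsd17b4, whose counts are uncertain because its row overlaps another.

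Acyl-CoA dehydrogenases carry out the opening step of each round and differ in the chain length they accept. After TMM, all 9 were higher in iWAT than in eWAT adipocytes, 8 were higher in BAT than in iWAT, and all 9 were higher in BAT than in eWAT. Of all genes tested, 34.1%, 37.2% and 41.4% passed in these directions. Scaled to 5 adipocyte markers, all 9 changed sign between the white depots. Acadvl, the enzyme for very long chains, showed the largest difference. Its level had a lowest, median and highest value of 32.7, 39.2 and 43.0 RPKM in iWAT, 17.9, 21.8 and 28.6 in eWAT, and 341, 434 and 478 in BAT. The 3 tissues did not overlap. Acadvl was 16.7-fold higher in BAT than in iWAT (log2 size 4.06, SE 0.11, adjusted p = 2e-13) and 28.2-fold higher than in eWAT (4.82, SE 0.14, adjusted p = 2.3e-13).

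Acadvl lies on the minus strand of chromosome 11 at 69823685 to 69828913 (mm9, 16 exons). Its span from start to end, introns included, overlaps that of Dvl2 on the opposite strand by 2119 bases. How much of this overlap lies in counted exons was not determined. The library kit does not mark strand, so reads in the overlap cannot be assigned to either gene; Dvl2 itself was listed at 12.1 RPKM in iWAT, 8.29 in eWAT and 136 in BAT. The promoter of Acadvl is shown because this gene differed most among the dehydrogenases and its window holds the nuclear receptor motif AGGTCA (capitals), 87 bases before the start site (RefSeq, GRCm38.p6, chr11:70015379-70015678, minus strand, 5′ to 3′).
Acadvl: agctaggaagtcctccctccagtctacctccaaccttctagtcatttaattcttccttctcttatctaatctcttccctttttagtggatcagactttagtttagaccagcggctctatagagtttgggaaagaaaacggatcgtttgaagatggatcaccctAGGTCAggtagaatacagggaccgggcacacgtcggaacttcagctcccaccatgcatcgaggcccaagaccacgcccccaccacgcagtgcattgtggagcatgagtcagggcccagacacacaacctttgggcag

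Acadm and Acadl, which act on medium and long chains, were the most abundant dehydrogenases in white adipocytes. Acadm ranged from 72.0 to 112 RPKM in iWAT (median 102), 30.3 to 63.7 in eWAT (median 47.7) and 276 to 386 in BAT (median 331). It was 2.06-fold higher in iWAT than in eWAT, the largest such difference among the dehydrogenases and close to that of Acadsb (log2 1.04, SE 0.18, adjusted p = 0.00024). Acadl spanned 62.2 to 97.1 RPKM in iWAT (median 86.2), 37.6 to 60.8 in eWAT (median 49.0) and 391 to 510 in BAT (median 441). Neither gene overlapped between tissues. Within a library, Acadvl was 0.40 ± 0.04 times the level of Acadm in iWAT and 0.49 ± 0.07 times in eWAT, but 1.31 ± 0.13 times in BAT. The dehydrogenases thus differed in proportion as well as in amount.

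Acads, the short-chain enzyme, averaged 38.9, 22.3 and 116 RPKM in iWAT, eWAT and BAT. Among the enzymes that mainly serve branched-chain amino acid breakdown, Acad8 had a mean of 6.14 RPKM in iWAT and was 2.73-fold (log2 1.45) higher in BAT than in iWAT. Acadsb had 19.5, 9.56 and 17.2 RPKM, and its small difference between iWAT and BAT changed direction with the scaling. Acad9, which is also an assembly factor of respiratory complex I, had 4.78 ± 0.57, 2.92 ± 0.65 and 3.60 ± 0.44 RPKM and did not pass the threshold between iWAT and BAT (adjusted p = 0.084), although it passed without iWAT library 16 (0.014) or BAT library 1 (0.036). Acad10 and Acad11 were higher in BAT than in both white depots, with log2 sizes from 1.73 to 2.73. The row of Acad11 overlaps that of Ccrl1 on the opposite strand, and its counts are uncertain.

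The 7 genes for the later mitochondrial steps moved together against BAT. Between the white depots, 6 were higher in iWAT than in eWAT, as were 34.1% of all genes. Each exceeded both white depots at least 2-fold in BAT, as did 19.1% of all genes against iWAT and 25.3% against eWAT. Of 5 general mitochondrial genes, all but Tomm20 (Cs, Vdac1, Tfam and Hspd1) were also at least 2-fold higher in BAT than in both depots. Their median log2 size was 1.02 against iWAT and 1.35 against eWAT, and that of the 7 genes was 2.37 and 3.42. The part of general mitochondrial content in the difference was not tested. Acaa2, the mitochondrial ketoacyl-CoA thiolase, was the most abundant member in BAT. Its lowest, median and highest levels were 47.2, 57.2 and 61.3 RPKM in iWAT, 34.5, 40.3 and 42 in eWAT, and 690, 760 and 874 in BAT. No tissue overlapped another. Acaa2 was 21.3-fold higher in BAT than in iWAT (log2 size 4.41, SE 0.11, adjusted p = 9.3e-14) and 29.9-fold higher than in eWAT (4.90, SE 0.10, adjusted p = 3.2e-14).

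Hadha and Hadhb encode the subunits of the trifunctional protein, which carries out the last steps for long chains. Hadha levels were 18.3, 21.5 and 22.8 RPKM (lowest, median and highest) in iWAT, 20.7, 22.1 and 23.7 in eWAT, and 122, 142 and 154 in BAT. For Hadhb these were 3.40, 4.21 and 4.72, then 2.51, 3.13 and 3.53, and 37.0, 41.6 and 49.0. Both genes were far higher in BAT, with log2 sizes against iWAT of 3.35 (SE 0.11) for Hadha and 3.96 (SE 0.11) for Hadhb. The white depots separated them: Hadhb was 1.36-fold higher in iWAT (adjusted p = 0.0029), whereas Hadha did not pass the threshold (log2 fold change -0.08, SE 0.08, adjusted p = 0.38). The ratio of Hadha to Hadhb within a library was 4.75 to 5.38 in iWAT, 6.33 to 8.81 in eWAT and 3.15 to 3.48 in BAT, with no overlap between tissues. Because their row lengths relate differently to the transcripts, the ratio itself is not a ratio of subunits.

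The genes lie head to head on chromosome 5, Hadha on the minus strand ending at 30481702 and Hadhb on the plus strand starting at 30481788 (mm9). Their RefSeq start sites are 273 bases apart, and 228 bases belong to both promoter windows. They are shown because 1 stretch of DNA lies between a pair of starts whose transcripts kept different proportions in the 3 tissues. Capitals mark the shared bases, which read in opposite directions in the lines below (GRCm38.p6, chr5:30154931-30155230 for Hadha and chr5:30155003-30155302 for Hadhb, each 5′ to 3′).
Hadha: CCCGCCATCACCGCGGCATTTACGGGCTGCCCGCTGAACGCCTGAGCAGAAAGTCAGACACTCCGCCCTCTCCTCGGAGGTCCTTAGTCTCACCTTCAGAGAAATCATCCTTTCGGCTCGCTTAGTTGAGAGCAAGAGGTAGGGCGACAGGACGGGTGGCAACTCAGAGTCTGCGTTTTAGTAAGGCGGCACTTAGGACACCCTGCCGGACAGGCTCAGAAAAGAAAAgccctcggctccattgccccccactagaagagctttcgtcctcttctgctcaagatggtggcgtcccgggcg
Hadhb: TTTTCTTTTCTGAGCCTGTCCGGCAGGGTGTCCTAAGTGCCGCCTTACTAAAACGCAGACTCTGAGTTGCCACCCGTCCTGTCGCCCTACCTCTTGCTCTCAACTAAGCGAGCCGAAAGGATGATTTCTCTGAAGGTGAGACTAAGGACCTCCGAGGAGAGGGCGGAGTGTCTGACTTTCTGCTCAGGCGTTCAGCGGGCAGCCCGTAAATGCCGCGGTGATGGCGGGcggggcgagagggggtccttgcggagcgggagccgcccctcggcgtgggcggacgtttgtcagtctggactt

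Acat1, the thiolase of ketone body and isoleucine metabolism, showed the largest difference between white depots in this group. It ranged from 29.1 to 41.1 RPKM in iWAT (median 36.8), 9.86 to 19.5 in eWAT (median 15) and 90.5 to 119 in BAT (median 103). The tissues did not overlap, and Acat1 was 2.49-fold higher in iWAT than in eWAT (log2 1.32, SE 0.17, adjusted p = 2.2e-05). Hadh, the hydroxyacyl-CoA dehydrogenase, averaged 33.0, 14.8 and 113 RPKM in iWAT, eWAT and BAT. Echs1, the short-chain hydratase, had 19.2, 8.81 and 53.0 RPKM. Decr1, the mitochondrial dienoyl-CoA reductase needed for unsaturated chains, had 40.2, 19.0 and 101. Each of these 3 was at least 2-fold higher in iWAT than in eWAT, with log2 values of 1.17, 1.13 and 1.09.

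All 3 ETF genes were higher in BAT than in both white depots and higher in iWAT than in eWAT. Of all genes tested, 37.2% were higher in BAT than in iWAT, 41.4% in BAT than in eWAT and 34.1% in iWAT than in eWAT. Etfb, the smaller ETF subunit, ranged from 85.1 to 114 RPKM in iWAT (median 106), 38.8 to 62.6 in eWAT (median 52.7) and 195 to 335 in BAT (median 278). It was 2.03-fold higher in iWAT than in eWAT (log2 1.02, SE 0.13, adjusted p = 1.6e-05). Etfdh, the membrane oxidoreductase that hands the electrons to ubiquinone, showed the larger difference against BAT, with 10.5 to 15.3, 5.69 to 9.89 and 55.3 to 82.2 RPKM. It was 8.11-fold higher in BAT than in iWAT (log2 size 3.02, SE 0.13, adjusted p = 1.4e-11) and 13.6-fold higher than in eWAT (3.77, SE 0.15, adjusted p = 5.8e-12). Etfa, the other subunit, averaged 30.5, 16 and 114 RPKM. As a share of the summed RPKM of the 3 genes, Etfb took 70.7 ± 0.81% in iWAT, 68.8 ± 0.70% in eWAT and 59.8 ± 5.81% in BAT. The rows of Etfb, Etfa and Etfdh were 1.31, 2.72 and 3.21 times the length of the longest transcript. These shares are therefore not shares of transcripts.

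The acyl-CoA synthetases did not follow the mitochondrial genes. Of the 4 tested, 1 was higher in BAT than in iWAT and 1 was higher in iWAT, against 37.2% and 38.1% of all genes. Between the white depots, Acsl1 was higher in iWAT (34.1% of all genes), whereas Acsl3, Acsl4 and Acsl5 were higher in eWAT (34.5%). Acsl1, the main synthetase of adipocytes, reached 148 to 233 RPKM in iWAT (median 169), 30.9 to 101 in eWAT (median 70.4) and 116 to 185 in BAT (median 145). The white depots did not overlap, while iWAT and BAT did. Acsl1 was 2.73-fold higher in iWAT than in eWAT (log2 1.45, SE 0.28, adjusted p = 0.00045) and 3.23-fold higher in BAT than in eWAT (1.69, SE 0.26, adjusted p = 2e-05). It missed the threshold between iWAT and BAT (log2 fold change -0.27, SE 0.16, adjusted p = 0.14), and without TMM it was higher in iWAT.

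Acsl4, which prefers arachidonic acid, had the opposite order. Its level was 8.02, 9.07 and 10.7 RPKM (lowest, median and highest) in iWAT, 13.4, 15.6 and 17 in eWAT, and 2.57, 3.07 and 3.37 in BAT. No 2 tissues overlapped. Acsl4 was 1.64-fold higher in eWAT than in iWAT (log2 size 0.72, SE 0.08, adjusted p = 5.5e-06), 2.03-fold higher in iWAT than in BAT (1.02, SE 0.08, adjusted p = 9.1e-09) and 3.40-fold higher in eWAT than in BAT (1.77, SE 0.08, adjusted p = 2.3e-11). Its difference between iWAT and BAT fell under 2-fold without iWAT library 3 or BAT library 1. The macrophage genes had the same order of tissues, and their part in the Acsl4 difference was not tested.

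Acsl5 was highest in BAT, at 13.3 to 38.6 RPKM (median 21.3) against 8.51 to 10.2 in iWAT and 11.7 to 14.1 in eWAT. It was 3.91-fold higher in BAT than in iWAT (log2 size 1.97, SE 0.20, adjusted p = 3.1e-07), although the BAT and eWAT ranges overlapped. Acsl3, a synthetase of the endoplasmic reticulum and lipid droplets, averaged 5.01, 7.33 and 3.64 RPKM in iWAT, eWAT and BAT. It overlaps Utp14b, and Acsl5 overlaps Zdhhc6, so both counts are uncertain. Of the summed synthetase level, Acsl1 took 85.1 to 91.3% in iWAT, 45.1 to 76.3% in eWAT and 71.9 to 89.8% in BAT. eWAT libraries 3 and 1, the same libraries that were lowest in adipocyte markers, had the smallest Acsl1 shares.

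**Figure D3:**
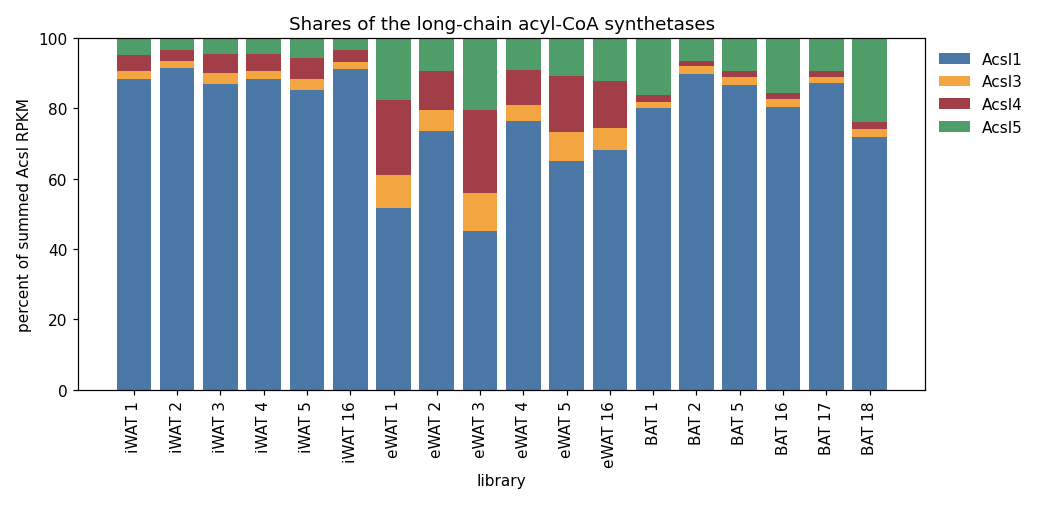
Share of Acsl1, Acsl3, Acsl4 and Acsl5 in the summed RPKM of the long-chain acyl-CoA synthetases (percent, vertical axis) in each of the 18 libraries. Acsl1 takes 85.1% or more in every iWAT library and takes 45.1% in eWAT library 3, where Acsl4 reaches 23.5%.

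The peroxisomal genes differed moderately between brown and white fat, and their direction against iWAT depended on the scaling. The median log2 size in favour of BAT was 0.71 against iWAT and 1.2 against eWAT after TMM. On the total count it was 0.26 in favour of BAT against eWAT but 0.15 in favour of iWAT against BAT, with 4 of 7 genes above 0 (Acaa1a, Acaa1b, Acox3 and Hsd17b4). Summed RPKM was 110 ± 11.6 in iWAT, 75.4 ± 12.5 in eWAT and 98.5 ± 13.7 in BAT. After TMM, of 7 tested against iWAT, 5 were higher in BAT and Acaa1b was higher in iWAT, against 37.2% and 38.1% of all genes. Hsd17b4, the bifunctional enzyme of the main peroxisomal pathway, was the most abundant, at 40.8 to 58.3 RPKM in iWAT (median 50.8), 21.8 to 37.8 in eWAT (median 31.3) and 39.7 to 53.7 in BAT (median 50.8). It was 1.66-fold higher in iWAT than in eWAT (adjusted p = 0.00073). Its direction between iWAT and BAT depended on the scaling. The row of Hsd17b4 overlaps another row on the same strand, listed at 94.8 RPKM in iWAT, 274 in eWAT and 8.97 in BAT. The counts of Hsd17b4, and with them the peroxisomal sum, are therefore uncertain. The rows of Acaa1a, Acox3, Etfa and Etfdh also overlap other rows with a mean of at least 1 RPKM in a tissue. Decr2, the peroxisomal dienoyl-CoA reductase, averaged 6.45, 6.76 and 10.1 RPKM and missed the threshold between the white depots (adjusted p = 0.54).

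The peroxisomal thiolases Acaa1a and Acaa1b averaged 13.2 and 28.5 RPKM in iWAT, 9.06 and 18.9 in eWAT, and 8.89 and 15.1 in BAT. Acaa1b was 1.24-fold higher in iWAT than in BAT (log2 0.31, SE 0.10, adjusted p = 0.0094), a call that was lost with BAT reduced to the 2 libraries with least muscle marker RNA (log2 0.23, adjusted p = 0.2). Both thiolases were higher in iWAT than in eWAT, with log2 values of 0.55 and 0.60. Their coding sequences are 96.5% identical over 1275 bases, and 38.1% of all 50-base windows of each occur in the other, so their separate counts are uncertain. A stretch of 60 coding bases at the same position in both is shown to make this visible, with the bases that differ in capitals (GENCODE vM1, mm9, chromosome 9).
Acaa1a: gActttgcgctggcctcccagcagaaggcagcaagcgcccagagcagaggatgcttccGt
Acaa1b: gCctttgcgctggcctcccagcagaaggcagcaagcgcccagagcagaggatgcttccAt

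Ehhadh and Acox3 stood at opposite ends of this group between the white depots. Ehhadh, the other peroxisomal bifunctional enzyme, ranged from 6.32 to 11.1 RPKM in iWAT (median 8.92) and 2.02 to 6.44 in eWAT (median 4.04). It was 2.1-fold higher in iWAT (log2 1.07, SE 0.24, adjusted p = 0.0016), although the ranges overlapped slightly. Acox3, an oxidase of branched chains, showed 3.0, 3.03 and 3.24 RPKM (lowest, median and highest) in iWAT, 4.77, 5.83 and 6.68 in eWAT, and 2.82, 3.35 and 3.55 in BAT. Acox3 was 1.86-fold higher in eWAT than in iWAT (log2 size 0.89, SE 0.07, adjusted p = 5.7e-07), with no overlap. Its difference between eWAT and BAT was small (log2 0.22, SE 0.09, adjusted p = 0.032) and missed the threshold without eWAT library 1 or 3 or BAT library 1 or 18, with adjusted p from 0.054 to 0.069.

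Thioesterases cleave acyl-CoA to free fatty acid and coenzyme A. Acot11, which is known to be induced in brown fat by cold, gave the largest difference of all 39 genes apart from those near 0 reads. Its level was 0.49, 0.61 and 0.81 RPKM (lowest, median and highest) in iWAT, 1.70, 2.22 and 2.74 in eWAT, and 63.2, 78.4 and 132 in BAT. The 3 ranges were far apart. Acot11 was 209-fold higher in BAT than in iWAT (log2 size 7.71, SE 0.24, adjusted p = 7.7e-13) and 55.8-fold higher than in eWAT (5.80, SE 0.23, adjusted p = 3.7e-12). In contrast to the mitochondrial genes, it was 3.67-fold higher in eWAT than in iWAT (1.88, SE 0.14, adjusted p = 3.9e-07). The row of Acot11 (chromosome 4, minus strand, 106417160 to 106477603, mm9) overlaps that of Fam151a on the other strand, which was listed at 21.4 RPKM in BAT.

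Acot13, a mitochondrial thioesterase, ranged from 14.0 to 18.4 RPKM in iWAT, 16.4 to 19.9 in eWAT and 63.6 to 77.0 in BAT. It was 6.82-fold and 5.81-fold higher in BAT than in iWAT and eWAT. Between the white depots it missed the threshold (adjusted p = 0.053), which it passed without iWAT library 2 or 3 or eWAT library 3. Acot8, the broad peroxisomal thioesterase, averaged 2.66, 2.84 and 3.25 RPKM in iWAT, eWAT and BAT, and its row overlaps Snx21 and Zswim3. Acot13 and Acot11 together thus formed most of the thioesterase sum in BAT, with 37.9 ± 5.05% and 43.8 ± 7.17%.

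Acot1, Acot2, Acot3 and Acot4 are neighbouring genes on chromosome 12 with products in the cytosol, mitochondria and peroxisomes. Acot2, the mitochondrial enzyme, ranged from 8.79 to 11.5 RPKM in iWAT (median 10.6), 6.28 to 7.36 in eWAT (median 7.26) and 20.9 to 35.9 in BAT (median 29.4). It was 1.47-fold higher in iWAT than in eWAT (log2 0.56, SE 0.09, adjusted p = 0.00019). Acot1, its cytosolic counterpart, was higher in eWAT, with 1.10 to 1.60 RPKM against 0.41 to 0.77 in iWAT (log2 size 1.38, SE 0.16, adjusted p = 7.7e-06). In BAT, Acot1 spread from 0.08 to 1.03 RPKM. It missed the threshold between iWAT and BAT (adjusted p = 0.18) and passed it without BAT library 16 (adjusted p = 0.043). Its excess in eWAT over BAT (log2 0.83, SE 0.34, adjusted p = 0.034) missed the threshold without eWAT library 5 or BAT library 1, 17 or 18, with adjusted p from 0.06 to 0.085.

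The coding sequences of Acot1 and Acot2 are 95.5% identical over 1239 aligned bases, and 43.5% of the 50-base windows of Acot1 occur in Acot2. Reads from these stretches can come from either gene, and the counts of both are uncertain. The following 60 bases are shown because they are the same in both genes (from the coding sequences of GENCODE vM1, mm9).
Acot1 and Acot2: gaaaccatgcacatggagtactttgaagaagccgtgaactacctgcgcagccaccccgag

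Acot4, the peroxisomal member of this cluster, measured 1.05 ± 0.135 RPKM in iWAT, 1.09 ± 0.19 in eWAT and 1.62 ± 1.17 in BAT. Its promoter is shown because Acot4 varied strongly among BAT libraries and its window holds AGGTCA (read as TGACCT, 13 bases before the start site), CCAAT and TATAAA, an overlapping pair of the last on both strands, all in capitals (RefSeq, GRCm38.p6, chr12:84038129-84038428, plus strand). Acot4 was the only gene of the set with TATAAA among the promoters available.
Acot4: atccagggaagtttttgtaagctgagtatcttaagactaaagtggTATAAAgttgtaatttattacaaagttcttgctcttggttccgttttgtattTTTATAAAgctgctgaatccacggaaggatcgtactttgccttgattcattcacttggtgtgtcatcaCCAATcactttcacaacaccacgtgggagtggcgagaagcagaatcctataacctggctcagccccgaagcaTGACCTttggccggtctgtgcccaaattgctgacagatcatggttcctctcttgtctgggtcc

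The BAT libraries differed from each other in Ehhadh, Acot4 and Acot1, among other members. Where the mean was at least 1 RPKM, the SD was 7.01 to 72.1% of the mean in BAT, with a median over genes of 12.7%. Ehhadh measured 18.6, 17.9 and 15.8 RPKM in BAT libraries 2, 5 and 17, and 8.15, 5.60 and 6.63 in libraries 1, 16 and 18. The former 3 libraries were above the latter 3, with no value in between. Acot4 gave 3.19, 2.97 and 1.36 RPKM in libraries 2, 5 and 17, and 0.80, 0.56 and 0.83 in libraries 1, 16 and 18. Acot1 gave 1.03, 0.77 and 0.52 against 0.25, 0.08 and 0.35. The same order was seen in 17 of the 36 members with a mean of at least 10 reads in BAT. Acsl1, for example, gave 185, 168 and 175 RPKM in libraries 2, 5 and 17 against 122, 121 and 116, and Acadm, Acadl, Hadha, Hadhb, Etfa and Etfdh were among the others. The reverse order was seen in Acsl5, Acot11 and Acox2. Among all 19243 genes at that level, 15.1% had the former order and 2.69% the reverse. This order was noticed after the values were seen and was not tested. Skeletal muscle markers summed to 1.39, 87.7 and 14.8 RPKM in libraries 2, 5 and 17, and to 76.4, 65.7 and 54.9 in libraries 1, 16 and 18. Acsl5 gave 13.3, 18.3 and 18.9 RPKM in libraries 2, 5 and 17 against 24.8, 23.8 and 38.6, and Acot11 gave 63.2, 76.3 and 65.0 against 81.1, 80.5 and 132. Both were highest in library 18.

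**Figure D4:**
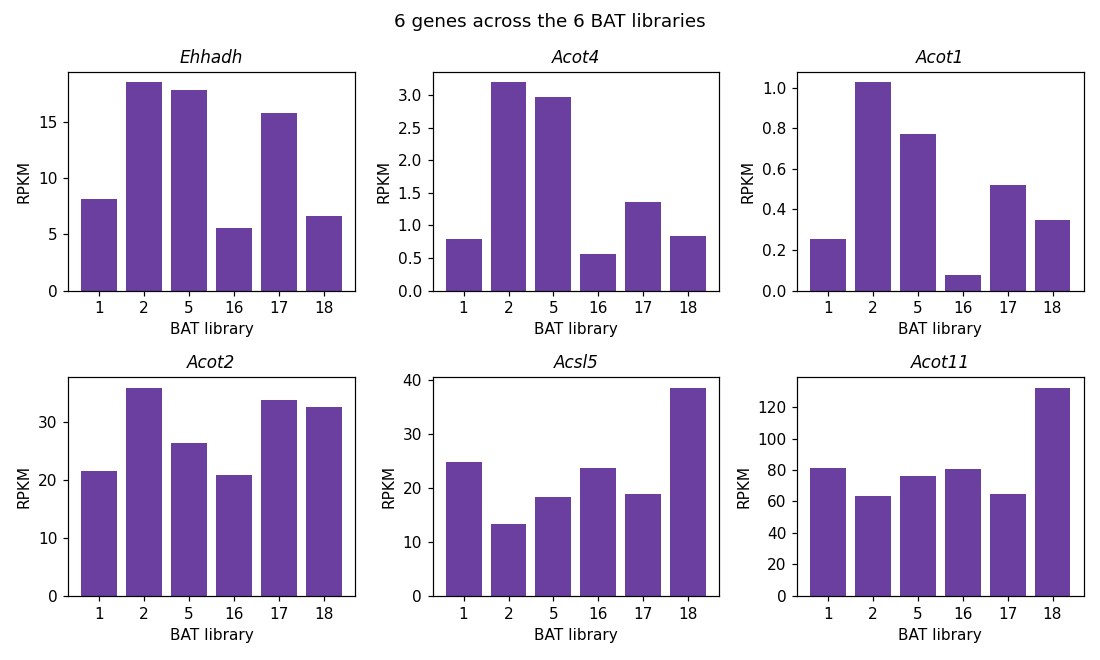
RPKM (vertical axes, each from 0) of 6 genes in the 6 BAT libraries, numbered as in the sample names. Ehhadh, Acot4 and Acot1 are higher in libraries 2, 5 and 17 than in the other 3, and Acsl5 and Acot11 are lower there and peak in library 18.

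Between the white depots, most genes were higher in iWAT adipocytes. Of 35 tested, 24 were higher in iWAT (68.6%), 6 were higher in eWAT (Acsl3, Acsl4, Acsl5, Acox3, Acot1 and Acot11) and 5 did not pass (Hadha, Decr2, Acot4, Acot8 and Acot13). Of all 19623 genes tested, 68.6% passed, with 34.1% higher in iWAT. The members' median log2 fold change was 0.63, against 0.00 for all genes. Within sequencing lane 1 (2 iWAT and 4 eWAT libraries) and lane 2 (4 and 2), the median log2 differences of the 35 were 0.60 and 0.78. All 30 genes that passed kept their direction in both lanes. They were called from these same libraries, so this is no independent support, and the share among all genes was not computed. At least 2-fold, 9 were higher in iWAT (25.7%, against 13.0% of all genes) and 2 in eWAT (11.9% of all genes). The RPKM values did not overlap in 27 members, 21 higher in iWAT and 6 in eWAT, against 44.0% of all genes, with 21.2% higher in iWAT and 22.8% in eWAT. This count of 9 was 4 without eWAT library 3, 5 without eWAT library 1 or iWAT library 16, and 2 without both eWAT libraries 1 and 3, whereas the number higher in iWAT at any size was 24 without those 2 as well.

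Scaling the libraries to the 5 adipocyte markers, which themselves were higher in iWAT, moved the median of all genes to -1.69. Under that scaling, 0 members were higher in iWAT and 29 were higher in eWAT, as were 0.729% and 84.8% of all genes. The members' median lay 0.72 log2 units towards iWAT relative to that of all genes, against 0.63 after TMM. Scaling moves members and all genes alike, so this distance stays similar by construction. Acsl1 then stood at -0.01 (adjusted p = 0.97), Acadm at -0.51 and Acaa2 at -1.14. Expressed per geometric mean of the adipocyte markers, the summed mitochondrial genes were 0.62 to 0.73 in iWAT, 0.87 to 1.77 in eWAT and 7.90 to 8.27 in BAT. eWAT libraries 1 and 3 gave the highest eWAT values, 1.5 and 1.77. The part of the macrophage RNA in these differences was not tested.

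**Figure D5:**
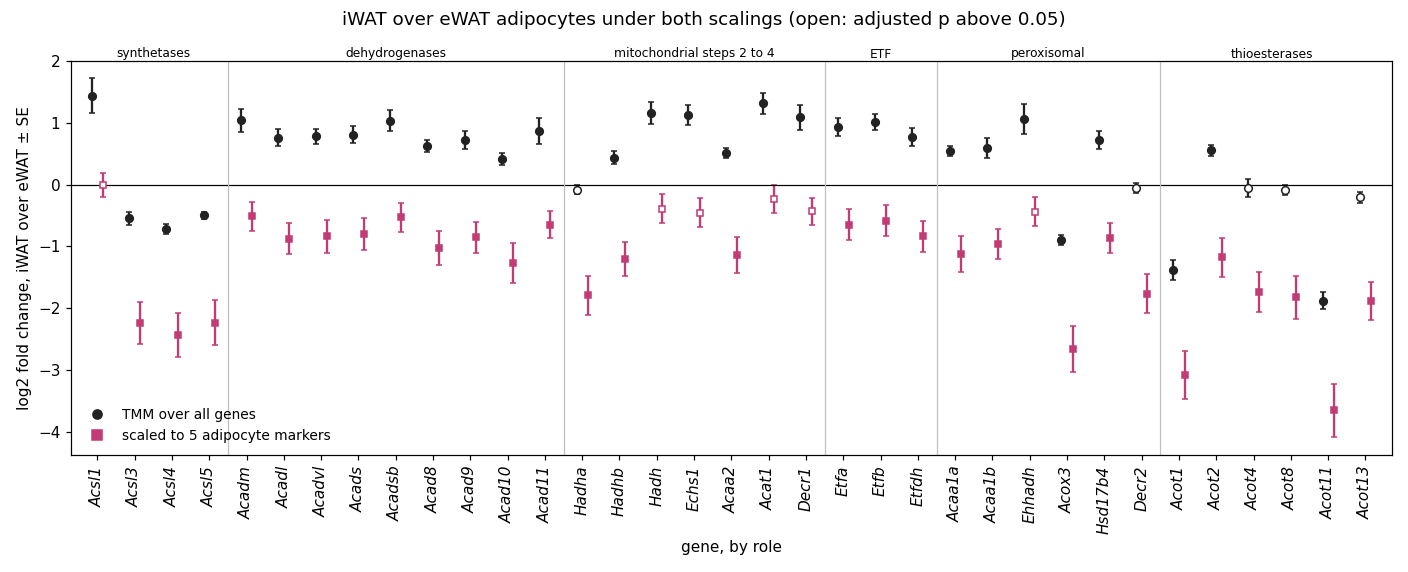
Log2 fold change of iWAT over eWAT adipocytes for the 35 genes tested, with bars of 1 SE from 12 libraries, after TMM scaling over all genes (black circles) and after scaling to 5 adipocyte markers (pink squares). Points above 0 are higher in iWAT and open points missed the threshold. Under TMM 24 genes pass above 0, and under the marker scaling 0 do.

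Other genes of the pathway followed a similar order, with exceptions at the carnitine step. Of 24 further genes for carnitine transfer, peroxisomal transport and related steps, 18 of 23 tested were higher in iWAT than in eWAT and 3 were lower. Against BAT, 18 of 24 were higher in BAT than in iWAT, and likewise 18 of 24 than in eWAT, while 5 were higher in each white depot. Of all genes tested, 34.1% were higher in iWAT than in eWAT. In BAT, 37.2% were higher than in iWAT and 41.4% higher than in eWAT. Cpt1b, the muscle-type carnitine palmitoyltransferase that gates entry into mitochondria, was at 2.91 ± 0.28 RPKM in iWAT, 0.97 ± 0.23 in eWAT and 187 ± 23.1 in BAT. Its liver-type counterpart Cpt1a had the reverse order, with 19.1 ± 0.81, 26.5 ± 2.38 and 2.74 ± 0.61 RPKM. Cpt1b was 97.6-fold higher in BAT than in iWAT (adjusted p = 4.5e-15), and Cpt1a was 4.58-fold higher in iWAT than in BAT (adjusted p = 1.4e-10). Slc27a2, a very long-chain acyl-CoA synthetase, averaged 12.4 RPKM in BAT and was at least 410.2-fold higher there than in either white depot on the RPKM scale, where it had at most 3 reads in a library.

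Known regulators of these genes were examined as well. Of 8, 6 were higher in iWAT than in eWAT and none was higher in eWAT, while 6 were higher in BAT than in iWAT and 7 than in eWAT. The shares of all genes tested in these directions were 34.1%, 37.2% and 41.4%. Ppara, the nuclear receptor that drives fatty acid oxidation genes, ranged from 0.855 to 1.31 RPKM in iWAT, 0.12 to 0.54 in eWAT and 34.3 to 58.6 in BAT. It was 56.9-fold higher in BAT than in iWAT (log2 size 5.83, SE 0.16, adjusted p = 2.6e-13) and 2.87-fold higher in iWAT than in eWAT (1.52, SE 0.28, adjusted p = 0.00031). Scaled to the adipocyte markers, the difference between white depots was 0.08 for Ppara (adjusted p = 0.75), 0.20 for Ppargc1a (0.47) and 0.04 for Cpt1b (0.89), and none of these 3 passed. The coactivator Ppargc1a averaged 0.82, 0.26 and 6.62 RPKM. Its relative Ppargc1b averaged 0.86, 0.82 and 13.7 and missed the threshold between the white depots (adjusted p = 0.58), as did Esrra, an orphan receptor of mitochondrial genes (adjusted p = 0.23).

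Of the 39 genes, 33 had at least 1 RefSeq promoter window (250 bases before to 50 after the start, both strands searched), 39 windows in all. Acad9, Acaa2, Acat1, Decr1, Hsd17b4 and Acot13 had no entry. The nuclear receptor motif AGGTCA was found in 8 windows (20.5%, against 16.3% of 32851 windows of all genes), in Acadm, Acadvl, Echs1, Acot3, Acot4, Acot12 and Acsl6. CCAAT was found in 22 windows (56.4%, against 37.4%), TATAAA in 1 (2.56%, against 13.6%) and the NRF1 motif in 3 (7.69%, against 4.6%), those of Acad10, Etfb and Etfdh. These matches are letters in a window and not binding sites.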

How the data were processed

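RNA of isolated white adipocytes and of whole BAT was sequenced on an Illumina instrument after NEBNext Ultra library preparation. The submitters' processing notes name cutadapt 1.16, HISAT2 2.1.0 and the mm9 build; the counting program and annotation are not given in the sources used here. The deposited files hold, per transcript row, whole-number read counts and the RPKM that the authors computed from them, with no other normalization, and exon signal columns that the authors derived, which were used only to check rows.

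The row with the highest mean RPKM represented a symbol. Counts were tested with edgeR 4.0.16 (glmQLFit and glmQLFTest, TMM, two-sided, the 12 libraries of each comparison) in R 4.3.3. A minimum mean count of 10 was required, and p-values were adjusted over all of them by Benjamini-Hochberg. The SE is the log2 fold change divided by the root of F. The fit was also run on simulated counts, and the outcome of that run is not given here. DESeq2 1.42.0 and limma 3.58.1 on log2 RPKM (pseudocounts 0.1 and 1) were alternatives. Other tools were Python 3.11.15, pandas 2.3.3, Biopython 1.88 and matplotlib 3.10.9.

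Samples were grouped by their titles. A label field gives regular chow, against titles and protocols, and the samples were taken as HFD. BAT libraries ran on lanes 3 and 4 and white libraries on lanes 1 and 2, so lane and BAT cannot be told apart. The study gives 6 samples per group, and whether each came from a separate mouse was not settled from the sources. If not, p-values measure only the spread between these libraries, which may be technical. Near-identical genes were compared by their GENCODE vM1 coding sequences, in place of the protein sequences first planned. Members and gene lists were chosen with earlier results of these data known. Fully described genes were, per role and comparison, those with the largest difference in each direction, and the 5 most abundant per tissue.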

Additional observations from a re-analysis of the deposited data

Results flagged for a closer look

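In 117 groups of 6 libraries (39 genes in 3 tissues), 7 held a value whose gap to its neighbour, divided by the range, exceeded Dixon's 95% critical value. About 1 in 20 groups, or 5.8 here, is flagged by chance. In iWAT library 5, Etfa was lowest at 23.6 RPKM against 31.2 to 32.2 in the others, and Acaa1a was lowest at 11.1 against 13.1 to 14.0. Acot8 was lowest in iWAT library 4, at 2.22 RPKM against 2.64 to 2.84. Acot1 was highest in iWAT library 3, at 0.767 RPKM (53 reads) against 0.41 to 0.52. Acot3 was at 0.0141 RPKM in iWAT library 2, a single read where the others had 0. Acot2 was lowest in eWAT library 16, at 6.28 RPKM against 6.97 to 7.36. Acot11 was highest in BAT library 18, at 132 RPKM (27459 reads) against 63.2 to 81.1, and its differences from both white depots held without that library.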

How the results depend on the processing

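Values are log2 fold changes of the first over the second tissue, with the tissue pair named. Scaled to the adipocyte markers, iWAT over eWAT changed sign for Acsl1 -0.0087, Acadm -0.51, Acadl -0.87, Acadvl -0.83, Acads -0.80, Acadsb -0.53, Acad8 -1.02, Acad9 -0.85, Acad10 -1.27, Acad11 -0.65, Hadhb -1.20, Hadh -0.38, Echs1 -0.45, Acaa2 -1.14, Acat1 -0.23, Decr1 -0.43, Etfa -0.64, Etfb -0.58, Etfdh -0.83, Acaa1a -1.12, Acaa1b -0.97, Ehhadh -0.44, Hsd17b4 -0.86, Acot2 -1.18, Ppargc1b -1.67 and Esrra -1.61. Cpt1b, Ppara and Ppargc1a lost their calls there. This setting moves the median of all genes by construction. The number higher in iWAT was then 0 and in eWAT 29, and at least 2-fold 0 and 17. On the total count, iWAT over BAT became Acsl1 0.58, Acsl3 0.71, Acadsb 0.43, Acad9 0.65, Acaa1a 0.81, Acox3 0.15, Hsd17b4 0.30 and Acot1 0.24. On the total count, eWAT over BAT became Acad9 0.013, Acaa1a 0.35, Acaa1b 0.64 and Acot8 0.12. On the total count, iWAT over eWAT became Ppargc1b -0.0052. On the total outside the mitochondrial genome, iWAT over BAT became Acsl1 0.39, Acsl3 0.52, Acadsb 0.24, Acad9 0.47, Acaa1a 0.63, Hsd17b4 0.12 and Acot1 0.064. On that total, eWAT over BAT became Acaa1a 0.12 and Acaa1b 0.42. With limma and a pseudocount of 0.1, iWAT over BAT became Acsl1 0.34, Acsl3 0.46, Acadsb 0.18, Acad9 0.40, Acaa1a 0.57, Hsd17b4 0.055 and Acot1 0.24. With the same, eWAT over BAT became Acaa1a 0.035 and Acaa1b 0.30. With limma and a pseudocount of 1, iWAT over BAT became Acsl1 0.33, Acsl3 0.38, Acadsb 0.17, Acad9 0.33, Acaa1a 0.53, Hsd17b4 0.054 and Acot1 0.037. With that, eWAT over BAT became Acaa1a 0.031 and Acaa1b 0.28. Without the filter, Acaa1a in iWAT over BAT was 0.070. The count higher in iWAT than in BAT (2) was 8 on the total count, 6 outside the mitochondrial genome, 5 with limma at either pseudocount and 1 with BAT reduced to 2 libraries. Its 2-fold count (1) was 2 on the total count and 0 with BAT reduced. Higher in eWAT than in BAT, 4 became 1 with BAT reduced and 2 with eWAT reduced to 4 libraries, and the 2-fold count (1) became 4 on the total count, 3 outside the mitochondrial genome and 2 with limma at 0.1. Between white depots, the 9 at least 2-fold higher in iWAT became 5 on the total count and 2 with eWAT reduced, and the 2 higher in eWAT became 1 with limma at 1. The cause of the limma and reduced-set changes was not tested. Both reduced sets were chosen after seeing the data. The median BAT level of 25.1 RPKM was 33.9 after TMM and 31.2 outside the mitochondrial genome.

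Leaving out 1 library at a time, the 2-fold count higher in iWAT than in eWAT ranged from 4 to 10, that in iWAT over BAT from 0 to 1 (0 without iWAT library 3 or BAT library 1), that in eWAT over BAT from 1 to 2, and the count higher in eWAT than in BAT from 2 to 4. Acot4 in iWAT over eWAT ranged from -0.13 to 0.022, and Acaa1a in iWAT over BAT from -0.072 to 0.031. With the replicate number as a block, the count higher in iWAT than in BAT was 1 and its 2-fold count 0. Acaa1b (adjusted p = 0.087) lost its call there, as did Acox3 in eWAT over BAT (0.13), and no other member changed call. Same-numbered libraries shared only a number, with mean correlations of their deviations from -0.011 to 0.015. DESeq2, all 18 samples in 1 fit, summed rows and, for the white depots, lane as a covariate reversed no member.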
